A study of Mus musculus with 16 samples.

Results

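Genes that bind and move zinc were followed in perfused mouse liver that did or did not lack the kinase PERK and was or was not exposed to tBuHQ. They were the metallothioneins Mt1 and Mt2, the metal-sensing transcription factor gene Mtf1, the exporters Slc30a1 and Slc30a10, and the importer Slc39a14. Every probe set that the platform annotation assigns to exactly 1 of these 6 symbols was taken, which gave 16 of the 45101 probe sets on the array. Of these 16, 15 passed a filter on low signals, and the 6 genes stood among 13395 genes tested. The set was chosen by the signals of Mt1 and Mt2, which differ strongly between unfractionated groups, so their unfractionated differences are given as a description with no test. The other members were listed beside them with earlier results of these data known, so their p-values are no independent support.

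The mice were 3 to 6 months old and were either Alb/Cre Perk-/- or wild-type littermates. Cre driven by the albumin promoter acts in hepatocytes, so that other liver cells of the knockout keep the gene. PERK, encoded by Eif2ak3, is a kinase in the membrane of the endoplasmic reticulum that slows translation under stress. Livers of both genotypes were perfused, without recirculation, with a buffer brought to 0.1 mM CaCl2, either without or with tBuHQ. tBuHQ, a di-tert-butylhydroquinone, inhibits the calcium pump of the endoplasmic reticulum. RNA came either from unfractionated liver supernatant or from the polysome part of a sucrose gradient of 20 to 47%, which holds mRNA carrying several ribosomes. The RNA of 2 livers was pooled for each array, and 12 µg entered the labelling. Genotype, treatment and fraction crossed to 8 groups of 2 arrays, 16 arrays in all, which the labels call biological replicates. The labels do not say whether the unfractionated and polysome arrays of 1 number came from the same livers, so polysome values are not known to be independent of the samples that led to the choice of these genes.

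Metallothioneins are small, cysteine-rich proteins that hold zinc and copper, and the liver makes Mt1 and Mt2 in large amounts. When zinc rises, MTF1 binds metal response elements and raises transcription of Mt1, Mt2 and Slc30a1, while glucocorticoids, interleukin-6 signalling and oxidants also induce the metallothioneins. Transporters of the SLC30 family lower cytosolic zinc by exporting it or storing it in vesicles, and those of the SLC39 family raise it. SLC30A10 mainly exports manganese, and SLC39A14 brings zinc, iron and manganese into hepatocytes and is induced during the acute phase response.

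The promoters of the members are shown because the metal response element is the sequence through which MTF1 acts. RefSeq (GRCm38.p6) gave a window from 250 bases before the gene start to 50 bases after it for 5 of the 6 members. The core of the element was searched as TGCACNC and TGCGCNC on both strands, and matches are in capitals. The 4 windows that held a core are printed 5′ to 3′ on the plus strand, which is the strand of each of these genes.
Mt1, chr8:94178839-94179138: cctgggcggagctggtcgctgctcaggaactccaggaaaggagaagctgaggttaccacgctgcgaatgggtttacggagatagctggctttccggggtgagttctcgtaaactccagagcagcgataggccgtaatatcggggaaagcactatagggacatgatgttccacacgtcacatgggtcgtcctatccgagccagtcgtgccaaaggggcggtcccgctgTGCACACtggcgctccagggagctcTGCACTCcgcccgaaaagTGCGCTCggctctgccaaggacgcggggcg
Mt2, chr8:94172368-94172667: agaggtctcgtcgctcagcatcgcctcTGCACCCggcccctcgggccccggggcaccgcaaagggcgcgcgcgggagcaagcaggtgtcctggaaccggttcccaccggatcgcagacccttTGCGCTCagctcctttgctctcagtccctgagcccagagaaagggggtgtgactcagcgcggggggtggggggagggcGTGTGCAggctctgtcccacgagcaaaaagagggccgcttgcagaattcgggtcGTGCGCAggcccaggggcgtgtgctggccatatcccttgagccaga
Slc30a1, chr1:191906531-191906830: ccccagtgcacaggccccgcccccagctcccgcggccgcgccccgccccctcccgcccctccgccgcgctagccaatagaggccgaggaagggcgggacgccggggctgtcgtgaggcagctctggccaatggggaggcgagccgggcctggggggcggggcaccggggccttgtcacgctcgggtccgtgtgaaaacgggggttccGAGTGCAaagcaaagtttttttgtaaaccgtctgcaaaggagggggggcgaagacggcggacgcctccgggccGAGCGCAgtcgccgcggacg
Slc30a10, chr1:185454598-185454897: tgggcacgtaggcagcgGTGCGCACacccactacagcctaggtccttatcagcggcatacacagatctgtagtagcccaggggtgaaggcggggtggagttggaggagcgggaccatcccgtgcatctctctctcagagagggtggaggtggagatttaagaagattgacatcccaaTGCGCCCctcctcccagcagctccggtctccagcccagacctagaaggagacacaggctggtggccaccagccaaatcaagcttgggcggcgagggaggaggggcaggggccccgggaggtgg

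The Mt1 window held 3 core matches, which begin at -23, 3 and 21, counted with 1 as the first base of the gene and -1 as the base before it. The Mt2 window held 4, which begin at -223, -128, -50 and 5. The Slc30a1 window held 2, and the Slc30a10 window held 3, of which a pair on opposite strands overlap at its 5′ end. Among 32851 RefSeq promoter windows of the same length, 25.7% held at least 1 core, 7.11% at least 2, 1.97% at least 3 and 0.517% at least 4. The Mtf1 window held no match. The core of the antioxidant response element, TGACNNNGC on either strand, occurred once each in the Mt2 and Slc30a1 windows and in 12.4% of all windows. A match describes letters in these windows and not use of a site. Each window follows the annotated start of its gene, and bases outside it or around other starts were not searched. The lack of a match therefore holds for the window only.

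All 16 arrays had been scaled to a 2%-trimmed mean signal of 150, so each value is relative to the rest of its own RNA sample. Signals are on a linear scale, and differences are on the log2(signal + 16) scale with their standard error. Tests were made with limma over all genes, and a call means an adjusted p under 0.05. Eif2ak3, the deleted gene, was lower in the knockout by 1.31 ± 0.17 on the log2 scale over all groups (limma, adjusted p = 0.00949). Summed hepatocyte markers lay between 62849 and 105881 on every array. They were 105793 and 105881 in treated wild-type unfractionated liver and 80126 to 91859 on the other unfractionated arrays. On the unfractionated arrays no hepatocyte marker was at or below the highest absent control signal of all arrays, 15.1. In these bulk samples, fewer cells of a type and less RNA per cell cannot be told apart. Of the 8 unfractionated arrays, 3 stood apart, namely the first treated knockout array and the 2 arrays of untreated wild-type liver. They correlated at 0.973 to 0.975 among themselves and at 0.948 to 0.964 with the other 5. The authors' deposited z scores conflict with the titles, since all 16 of their columns fit by value an array titled with the opposite tBuHQ treatment. Directions here follow the array titles, and every sign of a tBuHQ effect would turn under the column names. The comparisons of genotypes without and with tBuHQ would then also change places, so that what is called untreated here would be the treated liver.

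Mt1 was low in untreated wild-type liver and high in the other 3 unfractionated groups. In untreated wild-type liver its signals were 1885 and 1848, and with tBuHQ they were 9707 and 7832. In knockout liver they were 7373 and 7387 without tBuHQ, and 4933 and 7916 with it. Both untreated wild-type arrays thus lay below all other unfractionated arrays, and the knockout groups overlapped. The fitted tBuHQ effect was 2.21 ± 0.40 in wild-type liver, which is 4.64-fold, and -0.24 ± 0.40 in knockout liver. Leaving out 1 array at a time moved the knockout value between -0.58 and 0.10, so its direction is not settled. The effect was 2.45 ± 0.57 log2 units smaller in the knockout, and untreated knockout liver stood 1.97 ± 0.40 above untreated wild-type liver. With tBuHQ, the knockout stood 0.48 ± 0.40 log2 units below the wild type, within an interval of -1.34 to 0.38 at 95%. These differences share the untreated wild-type arrays and are a description.

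Mt2 followed the same order of groups at the low end. Its signals in untreated wild-type liver were 717 and 1246, and tBuHQ was accompanied by 4221 and 4007. Knockout liver gave 3023 and 4465 without tBuHQ, and 3171 and 3085 with it. The lowest of the other 6 unfractionated arrays, at 3023, was above both untreated wild-type arrays. The tBuHQ effect was 2.10 ± 0.41 in the wild type and -0.23 ± 0.41 in the knockout, where leaving out 1 array gave -0.51 to 0.049. Untreated knockout liver stood 1.94 ± 0.41 above the untreated wild type, again with no test. Across the 8 unfractionated arrays, Mt1 and Mt2 correlated at 0.937, which rests largely on the gap between the untreated wild-type arrays and the rest. Mt3, a metallothionein known from brain, lay between 2.73 and 36.5 on all arrays, and was above the highest absent control of 15.1 on 5 of the 16. Mt4 did not pass the filter.

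The authors' deposited table also holds z ratios between groups. Read by the array titles, its ratio for wild-type unfractionated RNA with against without tBuHQ was 2.66 for Mt1 and 2.64 for Mt2 in the authors' deposited table. For knockout unfractionated RNA the authors' deposited table gives -0.23 for Mt1 and -0.28 for Mt2. These Mt1 ratios are of the brighter of its 2 probe sets. The dimmer one has 0.75 in wild-type and -1.21 in knockout RNA in the authors' deposited table. For wild-type polysome RNA the authors' deposited table gives 0.90 for the brighter Mt1 set and -0.85 for Mt2. For knockout polysome RNA it gives -0.35 and 0.40. The unfractionated ratios come from the arrays that chose the genes and are no separate support. Of the 16 member probe sets, 13 are in that table.

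**Figure D1:**
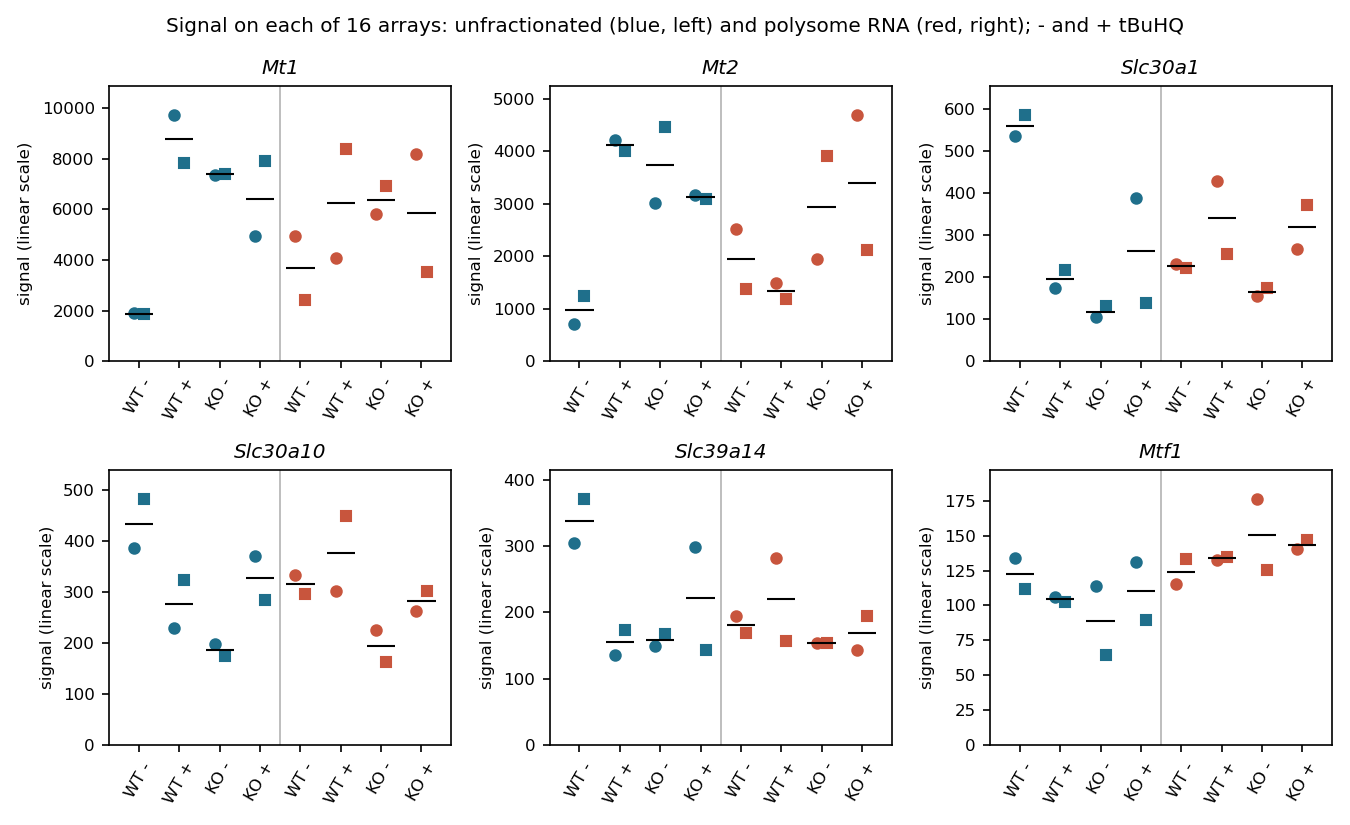
Linear signal of each member's kept probe set on the 16 arrays, with circles for replicate 1, squares for replicate 2 and a black bar for the mean of 2 arrays; WT is wild-type, KO is knockout, and - and + stand for tBuHQ. Untreated wild-type unfractionated liver is lowest for Mt1 and Mt2 and highest for Slc30a1, Slc30a10 and Slc39a14, while the polysome groups lie closer together.

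In polysome RNA the wild-type tBuHQ effects and the untreated genotype differences of the metallothioneins were smaller than in unfractionated RNA. No metallothionein difference within polysome RNA passed the test. Mt1 signals in wild-type polysomes were 4947 and 2423 without tBuHQ, and 4090 and 8371 with it. Knockout polysomes gave 5801 and 6904 without tBuHQ, and 8167 and 3503 with it. The treated and untreated arrays overlapped in both genotypes, and the 2 arrays of a group differed by more than 2-fold in 3 of the 4 groups. The tBuHQ effect on Mt1 was 0.75 ± 0.40 in wild-type polysomes (limma, adjusted p = 0.615), with a 95% interval of -0.10 to 1.61, and -0.24 ± 0.40 in knockout polysomes (limma, adjusted p = 0.964). The untreated knockout stood 0.87 ± 0.40 above the untreated wild type (limma, adjusted p = 0.786). Leaving out 1 array gave 0.35 to 1.38 for this difference.

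Mt2 in wild-type polysomes gave 2511 and 1373 without tBuHQ, and 1490 and 1176 with it. Knockout polysomes gave 1946 and 3922 without tBuHQ, and 4686 and 2111 with it. Treated and untreated arrays again overlapped in both genotypes. The tBuHQ effect was -0.48 ± 0.41 in wild-type (limma, adjusted p = 0.758) and 0.19 ± 0.41 in knockout polysomes (limma, adjusted p = 0.973). With tBuHQ, the knockout stood 1.24 ± 0.41 above the wild type, which did not pass the test (limma, adjusted p = 0.487). That difference ran from 0.67 to 1.81 on leaving out 1 array. Mt1 in the same comparison differed by -0.13 ± 0.40 (limma, adjusted p = 0.967). In unfractionated RNA the fitted Mt2 difference between the treated genotypes was -0.39 ± 0.41, smaller and of opposite sign, with no test. Across the 8 polysome arrays, Mt1 and Mt2 correlated at 0.437.

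In each of the 5 polysome comparisons of treatment and genotype, 0 of the 6 members were called by limma. Between 0 and 2 of the 6 reached an unadjusted p under 0.05. Among all 13395 genes, 0.0149% were called for the tBuHQ effect in wild-type polysomes, 0% for the effect in knockout polysomes and for its difference between genotypes, and 0.00747% for each comparison of knockout with wild-type polysomes. Few genes of any kind thus passed in this fraction. The Gapdh 3′ to 5′ probe ratio was highest, at 5.60, on the second wild-type polysome array with tBuHQ and 0.735 to 0.859 on the other 15 arrays. Without that array the wild-type polysome tBuHQ effect on Mt1 was 0.24.

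The distance between the fractions differed by condition for Mt2. In wild-type liver with tBuHQ, Mt2 polysome signals were 3.08-fold lower than unfractionated ones, a log2 difference of -1.62 ± 0.41. The second of these polysome arrays, at 1176, is the one with the Gapdh ratio of 5.60. Without tBuHQ, the polysome signals of wild-type liver stood 0.96 ± 0.41 above the unfractionated ones. In knockout liver the difference was -0.41 ± 0.41 without and 0.01 ± 0.41 with tBuHQ. For Mt1 the same 4 differences were 0.89 ± 0.40 and -0.57 ± 0.40 in untreated and treated wild-type liver, and -0.22 ± 0.40 in both knockout conditions. These differences use the single unfractionated groups that chose the genes and are not tested. The average over the 4 conditions does not use the differences between those groups. Averaged in this way, polysome minus unfractionated was -0.03 ± 0.20 for Mt1 (limma, adjusted p = 0.931, exact two-sided permutation p = 0.937) and -0.27 ± 0.20 for Mt2 (limma, adjusted p = 0.386, exact two-sided permutation p = 0.529). Those averages mix conditions of opposite sign.

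A second, much dimmer probe set for Mt1 gave other values. Its unfractionated signals ran from 42.3 to 105 with no order by group, and its polysome signals ran from 1.53 to 18.7. All 8 polysome arrays lay below all 8 unfractionated arrays, which held for 1.46% of 27061 probe sets. The set passed the filter on low signals only through its unfractionated arrays. Its polysome group means, 2.45 to 10.2, were all under the threshold of 12.3. A lower polysome signal is thus tied to how the set was admitted. Fitted on its own, the set was lower in polysomes by 2.02 ± 0.20 log2 units, given as a description with no test. Since 7 of the 8 polysome signals were not above the highest absent control of 15.1, only a bound can be given, and polysome signals at or under that control were set to it. The geometric mean was then at least 4.43-fold lower in polysomes. The bright set has a name with the ending s_at, which Affymetrix gives to probes that can match several transcripts, and which transcripts each set reads was not analysed here.

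**Figure D2:**
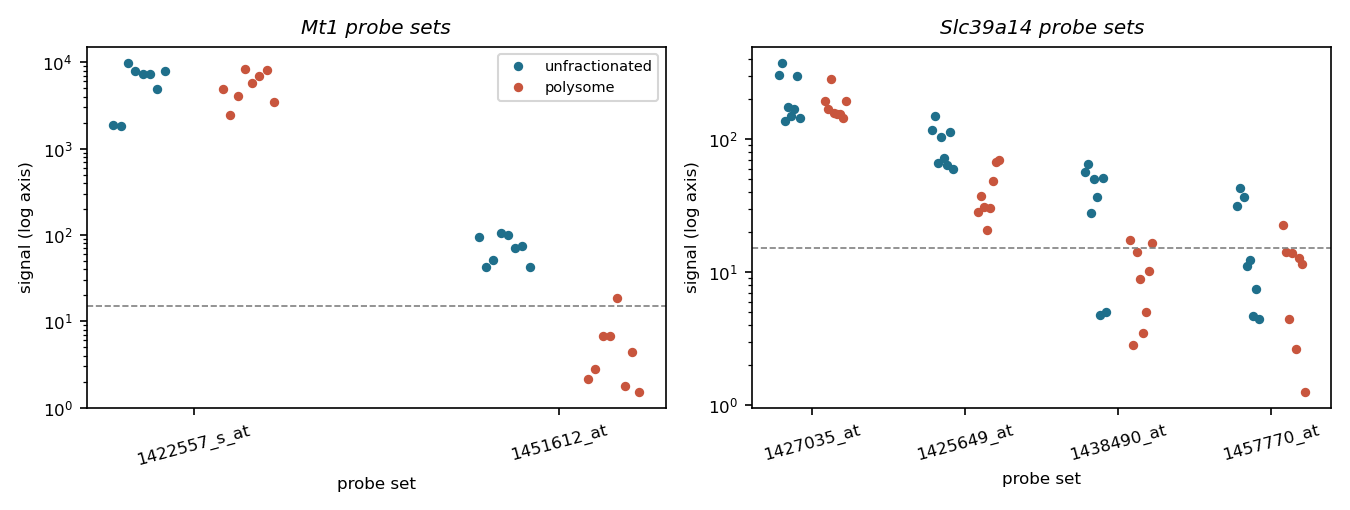
Signal on a log axis of each probe set of Mt1 (left) and Slc39a14 (right) on 8 unfractionated (blue) and 8 polysome arrays (red), with a dashed line at the highest absent control signal of 15.1. The bright Mt1 set overlaps between the fractions, whereas the dim one does not.

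Mtf1 varied less than the genes above, and 0 of the comparisons within a fraction called it. Its unfractionated signals in wild-type liver were 134 and 112 without tBuHQ, and 106 and 103 with it. Knockout liver gave 114 and 64.6 without tBuHQ, and 131 and 89.5 with it. All of these groups overlapped except the treated and the untreated wild-type arrays, whose difference was -0.20 ± 0.27 (limma, adjusted p = 0.723). Polysome signals ran from 115 to 176 against 64.6 to 134 in unfractionated RNA. The mean difference between the fractions was 0.34 ± 0.14, which did not pass (limma, adjusted p = 0.0813, unadjusted p = 0.0229). The exact two-sided permutation p was 0.00404 over 12870 splits of 8 against 8 arrays. That permutation p is not adjusted for the number of genes, and it ignores genotype and treatment. In that comparison 23.8% of all genes were called. Of its 4 other probe sets, the dimmest was at or under the absent control on 13 arrays and did not pass the filter, and none of the 3 others passed the test between fractions.

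Slc30a1, the zinc exporter of the plasma membrane and a target of MTF1, was highest where the metallothioneins were lowest. Untreated wild-type liver gave signals of 534 and 584, and wild-type liver with tBuHQ 173 and 217. Knockout liver gave 104 and 132 without tBuHQ, and 387 and 138 with it. Both untreated wild-type arrays stood above all other unfractionated arrays, and the 2 treated knockout arrays were far apart. Untreated knockout liver was 4.31-fold lower than untreated wild-type liver, a difference of -2.11 ± 0.37 (limma, adjusted p = 0.00841). In this comparison limma called 2 of the 4 members it tested, both lower, and it called 5.78% of all genes, 5.26% lower. Without any 1 of the 4 arrays compared, Slc30a1 lay between -2.26 and -1.96 with adjusted p from 0.0566 to 0.124 by limma, and calls over all genes went from 774 to between 0 and 9. Both untreated wild-type arrays are among those that stood apart, so no value without them can be given.

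By the array titles, Slc30a1 was 2.73-fold lower with tBuHQ in wild-type unfractionated liver, a log2 difference of -1.45 ± 0.37 (limma, adjusted p = 0.0412). This was the only 1 of the 4 tested members called there, against 3.56% of all genes called, 3.2% of all genes being lower. The 429 lower and 48 higher calls among all genes became 172 lower and 45 higher after quantile normalization over all arrays. That normalization put Slc30a1 at -1.31 (limma, adjusted p = 0.067). Of 10 alternative settings 3 called it, with values of -1.52 to -1.04, and only 4 of 16 fits that each leave out 1 array called it, those without a treated knockout unfractionated or a treated wild-type polysome array, with adjusted p from 0.00831 to 0.284 by limma.

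In knockout liver the tBuHQ effect on Slc30a1 was 0.90 ± 0.37 (limma, adjusted p = 0.530), and limma called 0 of the 4 members tested and 0% of all genes, with 2 members at an unadjusted p under 0.05. The Slc30a1 value was 0.21 without the first treated knockout array, and 1.60 without the second, where it passed (limma, adjusted p = 0.0479). The effect was 2.36 ± 0.52 higher in the knockout than in the wild type (limma, adjusted p = 0.0196), where 4.73% of all genes were called, 4.33% higher. Of 4 members tested, 1 was called. The value rested in part on the first treated knockout array, without which it was 1.66 (limma, adjusted p = 0.0998), and 10 of the 16 fits that leave out 1 array called it. The call was also lost without either untreated wild-type array, either untreated knockout array or the first treated wild-type array, at 2.20 to 2.50 with adjusted p from 0.0532 to 0.0978 by limma. These comparisons share the untreated wild-type arrays. With tBuHQ in both genotypes, the knockout differed by 0.25 ± 0.37 (limma, adjusted p = 0.943). There limma called 0 of the 4 members tested, with 0 at an unadjusted p under 0.05, and 0.00747% of all genes.

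A second Slc30a1 probe set gave 86.8 and 130 in untreated wild-type liver and 32.8 and 41.5 in untreated knockout liver. It was lower in the untreated knockout by 1.21 ± 0.28 log2 units (limma over probe sets, adjusted p = 0.0288). Its tBuHQ effect of -0.64 ± 0.28 in wild-type liver did not pass (limma, adjusted p = 0.260), nor did the genotype difference of 1.29 ± 0.40 in that effect (limma, adjusted p = 0.0906). In polysomes the kept set gave 231 and 221 in untreated and 428 and 254 in treated wild-type liver, and 154 and 173 in untreated and 267 and 370.0 in treated knockout liver. Its fitted tBuHQ effects did not pass, at 0.51 ± 0.37 in wild-type (limma, adjusted p = 0.714) and 0.88 ± 0.37 in knockout polysomes (limma, adjusted p = 0.827). The second set gave -0.02 ± 0.28 in wild-type polysomes (limma over probe sets, adjusted p = 0.991). In knockout polysomes it gave 0.92 ± 0.28 (limma over probe sets, adjusted p = 0.800). For the kept set, the wild-type tBuHQ effect differed between the fractions by 1.97 ± 0.52, which did not pass (limma, adjusted p = 0.0976). For that difference 0.134% of all genes were called.

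Slc30a10, the manganese exporter, gave 387 and 481 in untreated wild-type liver and 229 and 323 with tBuHQ. Knockout liver gave 198 and 174 without tBuHQ, and 369 and 284 with it. The untreated knockout arrays were the lowest 2 of the 8 and lay 2.21-fold under the untreated wild type, a difference of -1.15 ± 0.27 (limma, adjusted p = 0.0235). Of 10 alternative settings 7 called it, and the call was lost after either quantile normalization and with the replicate number as a block. It was also lost when any 1 of those 4 arrays was left out, with adjusted p from 0.0813 to 0.244 by limma. tBuHQ differed from no tBuHQ by -0.63 ± 0.27 in wild-type (limma, adjusted p = 0.214) and 0.75 ± 0.27 in knockout liver (limma, adjusted p = 0.486). The difference between these effects was 1.38 ± 0.39 (limma, adjusted p = 0.0528). A second set gave -1.25 ± 0.34 between untreated knockout and wild-type liver (limma over probe sets, adjusted p = 0.0529).

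Polysome signals of Slc30a10 were 334 and 296 in untreated and 302 and 449 in treated wild-type liver. They were 225 and 162 in untreated and 262 and 303 in treated knockout liver. The untreated knockout stood 0.67 ± 0.27 log2 units under the untreated wild type, which did not pass (limma, adjusted p = 0.711).

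Slc39a14, the importer, gave 304 and 370.3 in untreated wild-type liver and 137 and 173 with tBuHQ. Knockout liver gave 149.5 and 168 without tBuHQ, and 299 and 143 with it. As for Slc30a1, the untreated wild-type arrays and the first treated knockout array were high. The tBuHQ effect in wild-type liver was -1.05 ± 0.32 (limma, adjusted p = 0.0849), and the untreated knockout differed from the wild type by -1.01 ± 0.32 (limma, adjusted p = 0.0788). Neither passed. The genotype difference in the tBuHQ effect was 1.41 ± 0.46 (limma, adjusted p = 0.0905). It ran from 0.92 to 1.91 on leaving out 1 array, and 3 of those 16 fits called it.

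In polysomes the kept Slc39a14 set ran from 143 to 282 and overlapped with the unfractionated signals, at -0.19 ± 0.16 (limma, adjusted p = 0.454). Of its 3 dimmer sets, the brightest was called lower in polysomes, as were 8.7% of all probe sets. The brightest of these ran from 59.2 to 149 in unfractionated and from 20.7 to 69.1 in polysome RNA, a difference of -0.93 ± 0.16 (limma over probe sets, adjusted p = 0.000612). The next differed by -0.91 ± 0.26, given with no test, and it was at or under the absent control on 8 arrays. Its group means were 4.27 to 13.4 in polysome and 20.8 to 60.4 in unfractionated RNA. It passed the filter threshold of 12.3 largely through the unfractionated arrays, so a lower polysome signal is tied to its admission. The dimmest was at or under that control on 12 arrays.

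**Figure D3:**
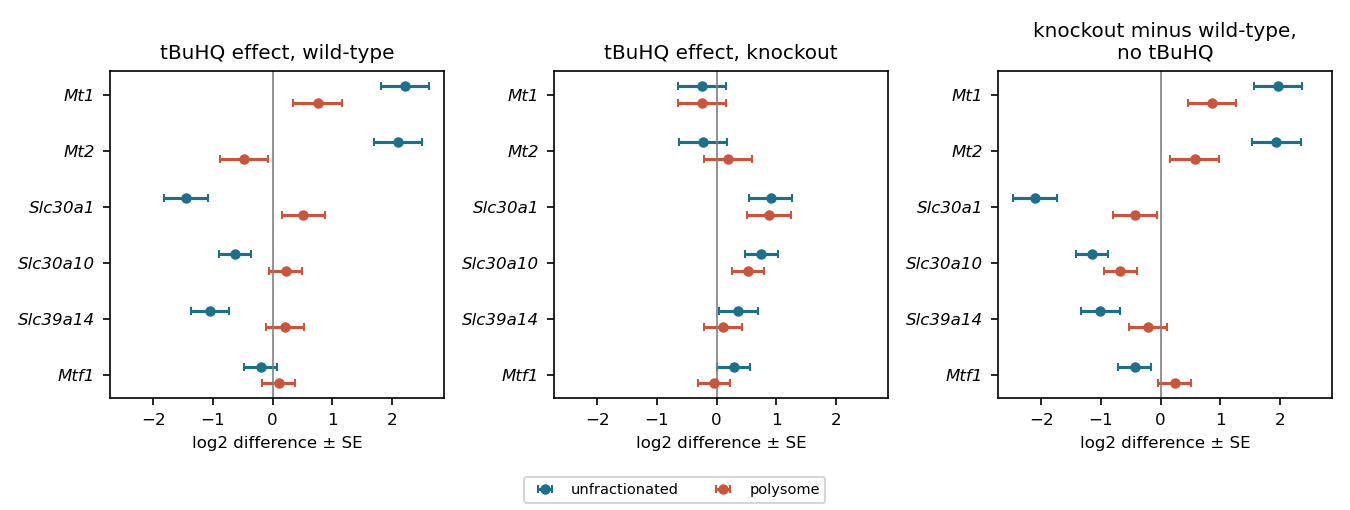
Log2 differences with their standard errors from limma for the 6 members, in unfractionated (blue) and polysome RNA (red), for the tBuHQ effect in each genotype and for knockout minus wild-type without tBuHQ. In unfractionated RNA, Mt1 and Mt2 lie right of 0 in the left and right panels, where Slc30a1, Slc30a10 and Slc39a14 lie left of it.

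Slc30a1, Slc30a10, Slc39a14 and Mt1 followed the 3 unfractionated arrays that stood apart. Those arrays include both untreated wild-type arrays, so array and condition cannot be told apart. Slc30a1, Slc30a10 and Slc39a14 were each higher on all 3 of them than on any of the other 5, which held for 15.7% of all genes. Mt1 was lower on all 3, at 1848 to 4933 against 7373 to 9707, which held for 10.7% of genes. Mt2 overlapped, since the first treated knockout array gave 3171. Over the 8 unfractionated arrays, Mt1 correlated at -0.886 with Slc30a1 and at -0.913 with Slc39a14. Over the 8 polysome arrays these values were -0.294 and -0.482. Mt1 with Slc30a10 gave -0.769 in unfractionated and -0.087 in polysome RNA. Mt2 with Slc30a1 gave -0.769 and -0.245, and Mt2 with Slc39a14 gave -0.744 and -0.396. Mt2 with Slc30a10 stayed close, at -0.683 in unfractionated and -0.653 in polysome RNA.

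Endothelial and stellate cell markers were highest on the same 3 arrays, whereas macrophage and pancreas markers were not. Summed signals of 8 sinusoidal endothelial markers were 1994 and 2299 in untreated wild-type liver, 2065 on the first treated knockout array and 844 to 1246 on the other 5. No such marker was at or below the absent control except 1 on the second treated knockout array. Summed signals of 8 stellate cell markers, of which 1 to 3 were at or below the absent control on each unfractionated array, were 3863 to 4101 in untreated and 3321 to 3640 in treated wild-type liver, 1530 to 1647 in untreated knockout liver, and 4166 and 2902 in treated knockout liver. The gap between the 3 arrays and treated wild-type liver was small, and untreated knockout liver was lowest. Summed macrophage markers ran from 2333 to 4158, with the highest on the first treated wild-type array. Summed pancreas markers were 2657 and 1834 on the first treated wild-type and the first untreated knockout arrays, and 84.0 to 262 on the other 6 unfractionated arrays. The polysome arrays of the same group and number gave 2007 and 2316, and the other 6 polysome arrays 116 to 236. The part of these in the values of the members was not tested.

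Other zinc transporters were counted from lists of both families, and these counts rest on the same arrays, without any 1 of which few genes of any kind were called. Of 10 SLC30 genes, 8 were tested. In untreated knockout against wild-type unfractionated liver 3 were lower, namely Slc30a1, Slc30a10 and Slc30a7, and 0 were higher, where 5.26% of all genes were lower, with a median over the 8 of -0.81 against -0.02 over all genes. Slc30a7 loads zinc into the secretory pathway, and its signals were 157 and 155 in the untreated wild type and 33.3 and 27.6 in the untreated knockout, a difference of -1.89 ± 0.33 (limma, adjusted p = 0.00865). In the tBuHQ effect on wild-type liver 2 were lower, Slc30a1 and Slc30a7, where 3.2% of all genes were lower, at a median of -0.44 against -0.02 over all genes.

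Of 14 SLC39 genes, 12 were tested. In the untreated comparison of genotypes 2 were lower and 0 higher, again against 5.26% of all genes lower, with a median of -0.83. Slc39a9, a transporter of the Golgi, differed by -1.51 ± 0.30 (limma, adjusted p = 0.0102), and Slc39a8, a close relative of Slc39a14, by -1.35 ± 0.29 (limma, adjusted p = 0.0141). By the array titles, 1 of the 12 was lower with tBuHQ in wild-type liver, against 3.2% of all genes. It was Slc39a9, lower by 1.31 ± 0.30 log2 units (limma, adjusted p = 0.0266). In knockout unfractionated liver limma called 0 of 8 SLC30 and 0 of 12 SLC39 genes for tBuHQ, where it called 0% of all genes and 1085 of 13395 had an unadjusted p under 0.05. In polysome RNA limma called 0 of either family for treatment or genotype, at the background shares given above.

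**Figure D4:**
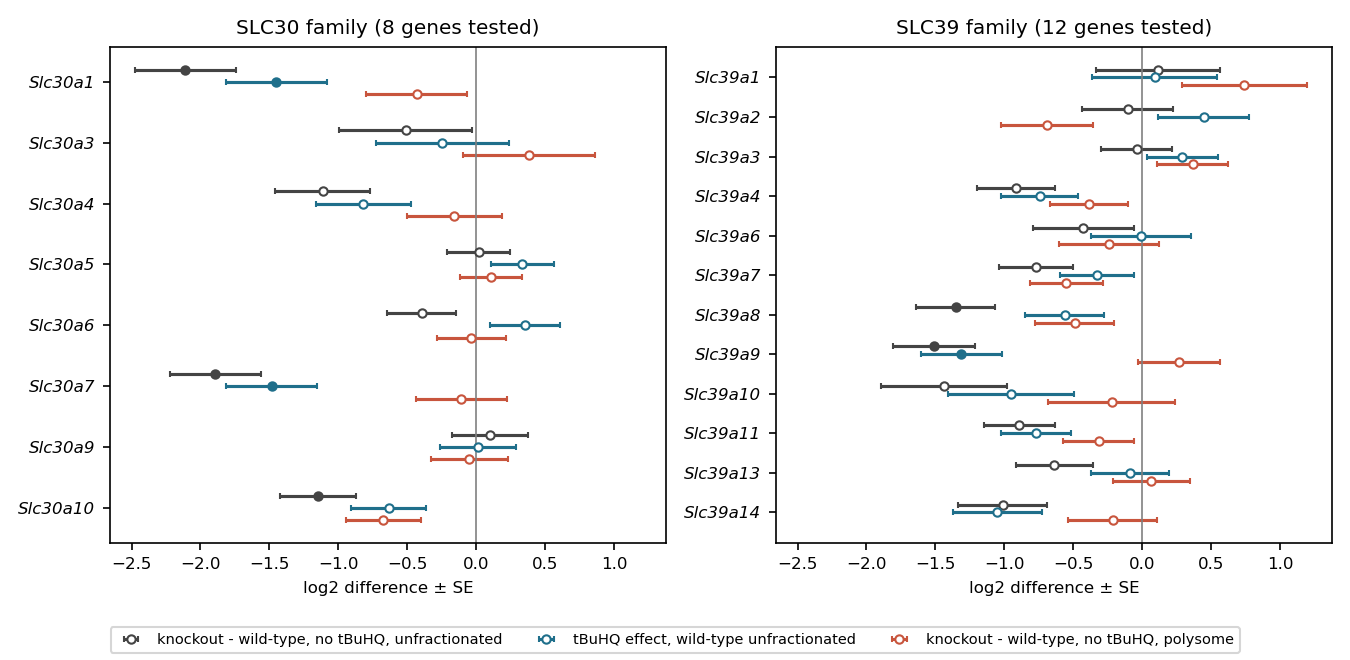
Log2 differences with their standard errors from limma for the tested genes of both zinc transporter families, for untreated knockout minus wild-type liver in unfractionated (grey) and polysome RNA (red) and for the tBuHQ effect in wild-type unfractionated liver (blue). Filled points passed an adjusted p of 0.05, which 3 SLC30 and 2 SLC39 genes did in the untreated unfractionated comparison and none did in polysomes.

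Lists of other pathways that act on metallothioneins or handle metals were counted in the same 2 comparisons. Of all genes, 3.56% were called for the tBuHQ effect in wild-type unfractionated liver, 3.2% being lower. In the untreated comparison of genotypes 5.78% were called, 5.26% being lower. The medians over all genes are those given above for the SLC30 family. Of 7 tested MTF1 targets outside the members, 0 were called in the tBuHQ effect on wild-type liver or in the untreated comparison of genotypes, with medians of -0.06 and -0.49. Of 13 NRF2 targets, genes of the antioxidant response, limma called 0 in either comparison, with medians of 0.20 and 0.19. Of 13 glucocorticoid-induced genes, Tsc22d3 was lower with tBuHQ in wild-type liver (limma, adjusted p = 0.0350), and 0 were called in the untreated comparison of genotypes, with medians of 0.017 and -0.035. Of 26 acute phase genes, Il6st, the shared signalling receptor of the interleukin-6 family, was lower in the untreated knockout at a log2 difference of -3.25 ± 0.55 (limma, adjusted p = 0.00806), and Steap4 was lower as well. Il6st and Stat3 were lower with tBuHQ in wild-type liver, and the list medians were 0.24 with tBuHQ and -0.22 in the untreated knockout. Of 20 genes of iron, copper and manganese handling, Tfr2, the hepatocyte transferrin receptor that senses iron, was lower with tBuHQ in wild-type liver, at -1.01 ± 0.23 (limma, adjusted p = 0.0266), and lower in the untreated knockout (limma, adjusted p = 0.0193). The medians of that list were -0.086 and -0.45.

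Genes whose pattern was most like that of a member were found by the correlation over 16 arrays after the mean of each fraction was taken off, as a description. Nearest to the mean of Mt1 and Mt2 were Serpina12 at 0.933, Rcl1 at 0.917 and Txn1, the gene of thioredoxin, at 0.883. Nearest to Slc30a1 were S1pr1, a sphingosine-1-phosphate receptor, at 0.945, Stra6l at 0.945 and Sec61a1, a subunit of the endoplasmic reticulum translocon, at 0.942. Slc30a10 was nearest to Igfals at 0.924, and Slc39a14 to Snx19 at 0.942. Mtf1 was nearest to Zfpm1 at 0.933. All of these share the same arrays, of which 3 stood apart.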

How the data were processed

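The authors deposited signal intensity per probe set of a mouse Affymetrix array, in linear units, already brought to a 2%-trimmed mean of 150 per array, as the values show. The summarisation software was not given in the sources. The z scores of the authors' deposited table were used only for their z ratios and to check the labels. Members and gene lists were chosen with earlier results of these data known. Names came from the platform annotation, with symbols updated through the GRCm38.p6 gene table. Values were turned to log2(signal + 16), which understates differences of dim genes. The brightest probe set by mean stood for a gene if it reached the 40th percentile (12.3), which 13395 of 18194 named genes did. limma 3.58.1 in R 4.3.3 (lmFit, eBayes with an intensity trend) fitted 8 group means to 16 arrays, with 8 residual and 7.48 prior degrees of freedom, and Benjamini-Hochberg adjustment ran over all genes within each contrast. Probe sets were also fitted one by one (27061 sets). With 2 arrays a group, permutation between groups cannot reach 0.05, so it was used only for the fractions, 8 against 8. The number of arrays limits the precision. The fit was tested on simulated data. Named were all members, called genes of the lists and the genes of most like pattern. Alternatives were other pseudocounts, normalizations, filters, probe set rules and subsets of arrays, and the replicate number as a block.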

Additional observations from a re-analysis of the deposited data

Results flagged for a closer look

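The tBuHQ effect on Slc30a1 in unfractionated RNA differed between the genotypes by 2.36 ± 0.52 on the log2 scale, knockout minus wild-type, in a test of the difference itself (limma, adjusted p = 0.0196). The wild-type signals were 534 and 584 without and 173 and 217 with tBuHQ, and the knockout signals were 104 and 132 without and 387 and 138 with it. The 2 treated knockout arrays were thus far apart, and leaving out 1 array gave 1.66 to 3.05. The value rested in part on the first treated knockout array, without which it was 1.66. In this comparison 4.73% of all genes were called, 4.33% higher. A second Slc30a1 probe set gave 1.29 ± 0.40, which did not pass (limma over probe sets, adjusted p = 0.0906).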

How the results depend on the processing

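All fits used limma, values are log2 differences, and the cause of a change between settings was not tested. For Mt1 in unfractionated RNA, the genotype difference in the tBuHQ effect, untreated knockout minus wild-type and the wild-type tBuHQ effect kept their direction under these settings. Its genotype difference in the tBuHQ effect was -2.02 after quantile normalization over all arrays, -2.16 within each fraction and -1.54 with the mean of all probe sets of a gene. Untreated knockout minus wild-type was 1.69, 1.82 and 1.15 under these, and 1.95 with a pseudocount of 64. The wild-type tBuHQ effect was 1.84, 1.97 and 1.19. The mean fraction difference of Mt1 turned to 0.31 after quantile normalization over all arrays (limma, adjusted p = 0.354) and passed the test at -1.03 with the mean of all probe sets (limma, adjusted p = 0.000383).

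The mean of all probe sets turned the sign of values that passed no test. For Mtf1 these were the genotype difference in unfractionated RNA (-0.032), knockout minus wild-type with tBuHQ in polysome (-0.070) and unfractionated RNA (-0.25), and the unfractionated knockout tBuHQ effect (-0.10). For Slc30a1 they were knockout minus wild-type with tBuHQ in polysomes (0.11) and the fraction difference (-0.049). For Slc39a14 they were the polysome genotype difference (0.38), knockout minus wild-type with tBuHQ in polysome (0.16) and unfractionated RNA (-0.23), and the wild-type polysome tBuHQ effect (-0.092). Quantile normalization over all arrays and within fractions turned Mtf1 in knockout minus wild-type with tBuHQ (-0.056 and -0.054) and in the wild-type tBuHQ effect (0.085 and 0.082), both unfractionated, and over all arrays the Slc30a1 fraction difference (-0.091).

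Leaving out 1 array at a time gave the following ranges. Mt1 ran from -2.79 to -2.11 in the unfractionated genotype difference, from -0.74 to 0.48 in polysome knockout minus wild-type with tBuHQ, from -0.19 to 0.12 in the fraction difference from -0.85 to 0.37 in the polysome and from -0.58 to 0.10 in the unfractionated knockout tBuHQ effect. Mt2 ran from -2.73 to -1.94 in the unfractionated genotype difference from -0.39 to 0.76 in the polysome and from -0.51 to 0.049 in the unfractionated knockout tBuHQ effect. Mtf1 ran from -0.37 to 0.077 in the polysome genotype difference, from -0.19 to 0.29 in unfractionated knockout minus wild-type with tBuHQ, and from -0.27 to 0.18 in polysome and -0.057 to 0.63 in unfractionated RNA in the knockout tBuHQ effect. Slc30a1 ran from -0.42 to 0.29 in polysome and -0.45 to 0.94 in unfractionated knockout minus wild-type with tBuHQ, and from -0.10 to 0.25 in the fraction difference. Slc30a10 ran from -0.11 to 0.024 in the fraction difference and from -0.053 to 0.49 in the wild-type polysome tBuHQ effect. Slc39a14 ran from -0.49 to 0.29 in the polysome genotype difference, from -0.70 to 0.076 in polysome and -0.091 to 0.89 in unfractionated knockout minus wild-type with tBuHQ, from -0.10 to 0.31 in polysome and -0.13 to 0.85 in unfractionated RNA in the knockout tBuHQ effect, and from -0.18 to 0.59 in the wild-type polysome tBuHQ effect.

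The 477 genes called for the wild-type unfractionated tBuHQ effect became 217 and 240 under the 2 quantile normalizations, 298 without a filter, 175 with the mean of all probe sets, 315 without a trend and 808 with the unfractionated arrays alone, and leaving out 1 array gave 1 to 828. The 634 of the genotype difference became 385, 396, 314 and 1310 under the same quantile, probe set and array settings, and 0 to 1129 without 1 array. The 774 of untreated knockout against wild-type became 479 with the mean of all probe sets and 1643 with the unfractionated arrays alone, and 0 to 1262 without 1 array. Quantile normalization over all arrays moved the median of all genes from 0.04 to -0.11 in the genotype difference and from -0.02 to 0.09 in untreated knockout against wild-type.

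Replicate numbers were not taken to pair the arrays, since same-numbered arrays correlated at 0.0667 to 0.281 between fractions and at -0.27 to 0.319 within one. Summed pancreas markers were nevertheless high on the same numbers in both fractions of 2 groups, so shared livers are possible. Of the 16 columns of the authors' z scores, 4 carry another replicate number than the array they fit by value. These 4 fit the untreated polysome arrays of both genotypes, and the numbers used here follow the titles. With fractions paired by number, the Mtf1 fraction difference of 0.34 had an adjusted p of 0.0628 by limma, and the 8 against 8 permutation is unpaired. With the replicate number as a block, the 3 counts were 260, 395 and 505, and the calls of Slc30a1 in the wild-type tBuHQ effect (-1.45, limma, adjusted p = 0.0738) and of Slc30a10 in the untreated knockout (-1.15, limma, adjusted p = 0.0506) were lost. The Slc30a1 call in the wild-type tBuHQ effect was also lost after quantile normalization within fractions (limma, adjusted p = 0.0599), without a filter (limma, adjusted p = 0.0583), with the mean of all probe sets (limma, adjusted p = 0.0656), with every probe set fitted on its own (limma, adjusted p = 0.0546) and without a trend (limma, adjusted p = 0.0604).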
